A study of Mus musculus with 8 samples.

Results

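The AP-1 transcription factor subunits were followed here through 10 mouse genes, namely Jun, Junb, Jund, Fos, Fosb, Fosl1, Fosl2, Atf3, Atf2 and Jdp2. Their probes were found through the RefSeq accession that the scanner files give for each probe. All 10 genes were on the array, among 20660 genes with a symbol, and had 14 of its 55681 probes. Of these 14 probes, 13 were kept, since at least 4 of the 8 arrays gave them a signal well above background, and 11 had one on all 8. Fos had the 1 probe that was not kept. Atf2 had 4 kept probes, Fosl2 had 2, and each other gene had 1.

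The samples were fresh-frozen livers of female B6C3F1 mice, bought at 5 to 6 weeks of age and housed for at least 7 days before the study. The RNA integrity number, a measure of RNA quality, was above 8.9 in both groups. Corn oil alone was given by gavage to the 4 animals of the vehicle group, numbered 2, 3, 4 and 6. Furan in corn oil, at 8 mg per kg body weight, was given by the same route to the 4 animals of the furan group, numbered 41, 42, 43 and 44. Dosing lasted 21 days in both groups, and tissue was taken 4 hours after the last dose. Furan is a small volatile compound of heated food that is toxic and carcinogenic in rodent liver. Whole liver was used, so a difference in RNA per cell and a difference in the number of cells of a type cannot be told apart. Animals were assigned in randomized blocks, and the labels do not tell the block of an animal.

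AP-1 is a dimer of basic leucine zipper proteins, and it is formed by a Jun protein paired with a Fos, Atf or other Jun protein. Jun and Fos are classic immediate early genes, transcribed within minutes of a mitogen or stress signal that reaches them through MAP kinases. Fos-family dimers bind a short palindrome known as the TPA response element, and dimers that hold Atf2 or Atf3 favour the slightly longer cyclic AMP response element. In liver, Jun is known for its part in hepatocyte proliferation after injury and in chemically induced tumours.

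The promoters of Jun, Jund and Atf3, which rose, and that of Fos, which did not enter the test, are shown. The reason is that Jun and Atf3 are known to be controlled by factors of their own family. Sequences are from RefSeq in build GRCm38.p6, from up to 250 bases before the start of the gene, and capitals mark a match to 1 of 3 motifs searched on both strands. The motifs were TGANTCA, TGANNTCA and ACGTCA, and a full cyclic AMP response element would match both of the last 2.
Jun, chr4:95052223-95052307, minus strand: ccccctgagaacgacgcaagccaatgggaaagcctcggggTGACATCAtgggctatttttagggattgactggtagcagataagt
Jund, chr8:70697638-70697725, plus strand: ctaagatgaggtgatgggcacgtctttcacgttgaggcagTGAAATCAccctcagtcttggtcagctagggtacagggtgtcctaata
Atf3, chr1:191183334-191183381, minus strand: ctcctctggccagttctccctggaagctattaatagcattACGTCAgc
Fos, chr12:85473784-85473869, plus strand: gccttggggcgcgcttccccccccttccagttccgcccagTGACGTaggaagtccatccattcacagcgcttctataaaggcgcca

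Relative to the gene start, the match shown began at -45 in Jun, at -61 in Jund, at -8 in Atf3 and at -66 in Fos. TGANNTCA was in the windows of Jun and Jund among the 9 member genes that had one, and in 14.1% of all 32851 promoter windows of 300 bases. ACGTCA was in those of Atf3, Fos and Jdp2, and in 7.51% of all windows. The window of Jdp2, which was tested and did not pass, is not shown. TGANTCA was in 0 of the 11 member windows and in 7.81% of all. The window of Fosl2, which also rose, held none of the 3 motifs and is not shown. Jun had a further TGANNTCA match, TGAGCTCA, from 2 to 9 bases after its gene start, in the transcribed part that is not shown. A match describes letters in a window and shows no binding.

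Between 55.1% and 86.2% of the probe spots of an array were well above background, with the highest share on the array of vehicle replicate 2 and 55.1% to 69.4% on the other 7. All 8 arrays were on 1 slide with 1 scan date. Levels are log2 processed signals relative to the 75th percentile of the same array, and a change is furan minus vehicle. Levels of different probes cannot be compared with each other. In limma with Benjamini-Hochberg adjustment, 1126 of 33848 kept probes passed an adjusted p of 0.05, which is 3.33%, with 765 higher and 361 lower. The median change of all kept probes was -0.12, and it moved to 0.05 with quantile normalization and to 0.37 with a median shift, where 77 probes were higher and 1 was lower. All 8 hepatocyte markers were kept, such as the albumin gene Alb, and their summed level was 12.02 to 12.50 on the vehicle arrays and 12.09 to 12.27 on the furan arrays.

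After furan, 4 of the 13 kept AP-1 probes rose and 0 fell, against 3.33% of all kept probes passing in either direction and 2.26% passing upward. The rising genes were Atf3 at 6.46-fold, Jun at 4.55-fold, Fosl2 at 2.26-fold with its brighter probe, and Jund at 1.64-fold. These 4 probes were also the ones whose furan and vehicle values did not overlap, which held for 17.4% of all kept probes, and with furan higher for 9.98%. The signs of these 4 changes held in each of 20 alternative ways of processing the data. Several of these ways, such as another filter, a block or trend and robust, cannot alter a change, so their signs were fixed in advance. The call was lost in 11 of the 20 for Jund, in 5 for Fosl2, and in 1 each for Jun and Atf3. The median change over the 13 probes was 0.12, with 8 of them above 0.

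**Figure D1:**
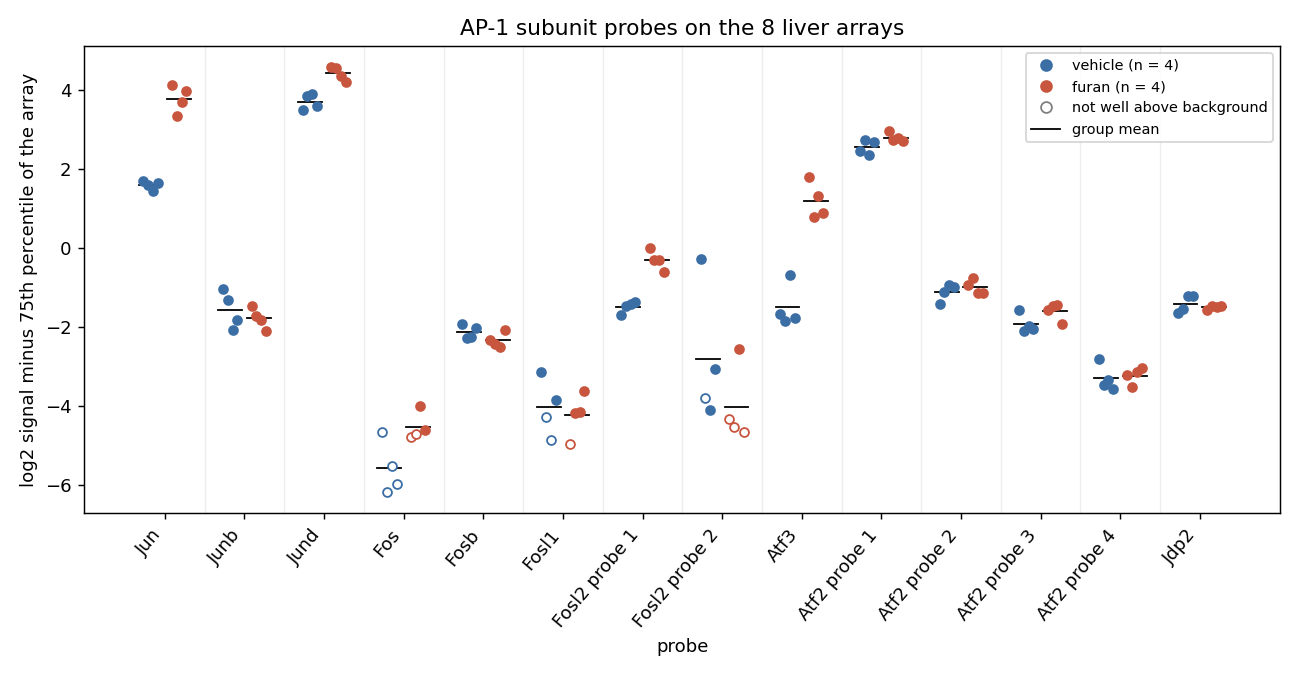
Each point is 1 array, with the log2 signal relative to the 75th percentile of the array on the y axis and the 14 AP-1 probes on the x axis; filled points are well above background and bars are group means of 4 arrays. Jun, Jund, Atf3 and the brighter Fosl2 probe have all furan points above all vehicle points, and Fos is above background on 2 furan arrays.

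Among the Jun proteins, the subunits able to dimerise with themselves, Jun itself changed most. On the vehicle arrays of replicates 2, 3, 4 and 6, Jun stood at 1.70, 1.60, 1.43 and 1.63. On the furan arrays of replicates 41, 42, 43 and 44, Jun stood at 4.11, 3.33, 3.69 and 3.97. The lowest furan value was thus well over the highest vehicle value, and the vehicle arrays lay close together. Jun rose from 1.59 ± 0.11 (SD, n = 4) to 3.78 ± 0.35, a change of 2.19 ± 0.18 (SE) with a 95% interval of 1.78 to 2.59 (limma adjusted p = 0.00428). By size of increase, the Jun probe ranked 31 among the 33848 kept probes. The difference was 2.17 in the first slide row and 2.21 in the second, and 1.70, 2.10, 2.41 and 2.54 in the 4 slide columns, each of which held 1 vehicle and 1 furan array. With the slide column as a block the adjusted p was 0.128, in a fit where 0 of all kept probes passed in limma and 5945 had an unadjusted p under 0.05. Without vehicle replicate 2 the change in Jun was 2.22 (adjusted p = 0.00869), and the call held without any 1 array.

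Jund, the Jun family member known for steady expression and for restraint of growth, rose by much less. Jund stood at 3.49, 3.85, 3.88 and 3.58 on the vehicle arrays of replicates 2, 3, 4 and 6. It stood at 4.57, 4.55, 4.34 and 4.20 on the furan arrays of replicates 41 to 44. The groups were apart, with a gap smaller than the spread inside either group. Jund changed by 0.72 ± 0.13 (SE), with a 95% interval of 0.41 to 1.03 (limma adjusted p = 0.0357). The difference was 0.73 and 0.70 in the slide rows and 0.97, 0.49, 1.08 and 0.32 in the slide columns.
The Jund call was lost in every fit that left out 1 array. Leaving out vehicle replicate 2, 3, 4 or 6 gave an adjusted p of 0.0531, 0.0675, 0.0684 or 0.0933. Leaving out furan replicate 41, 42, 43 or 44 gave 0.107, 0.100, 0.0929 or 0.0649, and the change stayed between 0.65 and 0.79. It was also lost with a median shift (0.459), without the filter on dim probes (0.137) and with the slide column as a block (0.199).

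Junb, which often opposes Jun at shared targets, did not pass. Junb stood at -1.04, -1.31, -2.07 and -1.82 on the vehicle arrays of replicates 2, 3, 4 and 6. On the furan arrays it stood at -1.48, -1.73, -1.82 and -2.11. The groups overlapped over most of their range, with the highest value on vehicle replicate 2. The change was -0.22 ± 0.25 (SE), with a 95% interval of -0.79 to 0.35 (limma adjusted p = 0.566), and it was -0.05 without vehicle replicate 2. The interval leaves out a doubling in either direction.

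**Figure D2:**
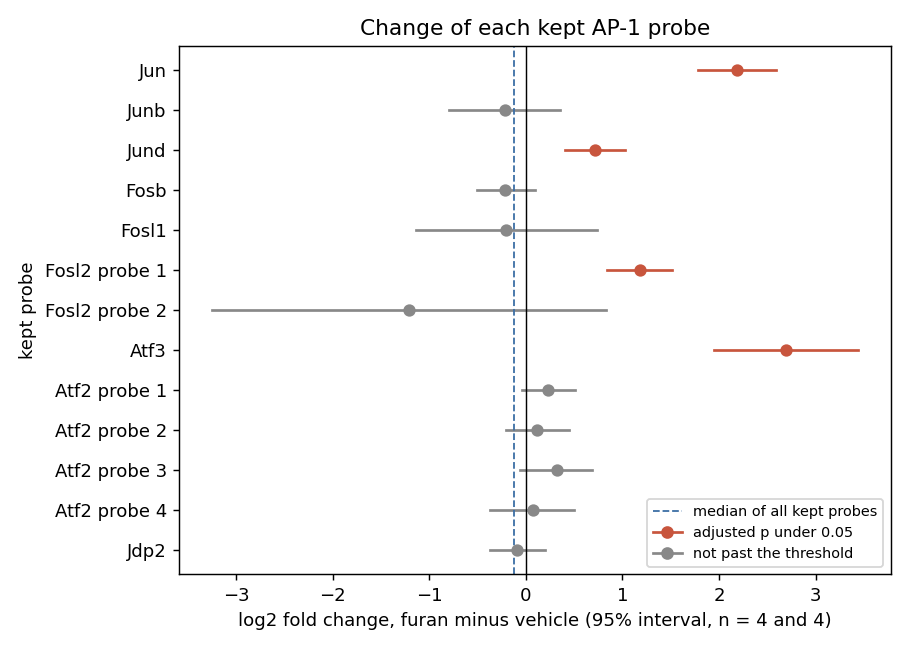
Points are the log2 fold change of each of the 13 kept AP-1 probes (x axis, furan minus vehicle, 4 arrays a group) and bars are 95% intervals; red marks an adjusted p under 0.05 and the dashed line the median of all kept probes at -0.12. Jun, Jund, Atf3 and the brighter Fosl2 probe have intervals above 0, and the dimmer Fosl2 probe has the widest interval, from -3.25 to 0.83.

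The Fos proteins cannot pair with themselves and need a Jun partner. Fosl2, which encodes Fra-2, was read by a pair of probes that disagreed. The brighter probe stood at -1.71, -1.46, -1.43 and -1.37 on the vehicle arrays of replicates 2, 3, 4 and 6. It stood at -0.01, -0.31, -0.31 and -0.62 on the furan arrays of replicates 41 to 44. It was above background on all 8 arrays and its groups did not overlap. It rose by 1.18 ± 0.14 (SE), with a 95% interval of 0.84 to 1.51 (limma adjusted p = 0.0124). The difference was 1.07 and 1.28 in the slide rows and 1.06, 1.14, 1.69 and 0.81 in the slide columns. The call was lost without furan replicate 43 (0.0522), with quantile normalization (0.0872), a median shift (0.163), the slide column as a block (0.163) and no filter (0.0580).

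The dimmer Fosl2 probe stood at -0.29, -3.81, -4.11 and -3.06 on the vehicle arrays of replicates 2, 3, 4 and 6, and at -4.33, -4.53, -2.57 and -4.66 on the furan arrays. It was above background on 3 vehicle arrays and on 1 furan array, that of replicate 43. Its processed intensity was 377 on vehicle replicate 2, against 16.8 to 70.0 on the other 7 arrays. The change was -1.21 ± 0.88 (SE, limma adjusted p = 0.404), and it was -0.36 without vehicle replicate 2 (0.714). Of the 8147 kept probes with a mean level below -3, 88.7% had a change below 0, with a median of -0.55, and without vehicle replicate 2 these were 74.3% and -0.23. The part of that array in the disagreement of the probes was not tested beyond these values.

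Fosl1, which encodes Fra-1, an AP-1 subunit often high in invasive tumour cells, was near the detection limit. It stood at -3.15, -4.29, -4.85 and -3.84 on the vehicle arrays of replicates 2, 3, 4 and 6. On the furan arrays it stood at -4.97, -4.19, -4.16 and -3.61. It was above background on 2 vehicle and 3 furan arrays, and the groups overlapped, although vehicle replicate 2 was above every furan array and furan replicate 41 below every vehicle array. The change was -0.20 ± 0.41 (SE), with a 95% interval of -1.14 to 0.74 (limma adjusted p = 0.762), and it was 0.09 without vehicle replicate 2 and 0.05 without furan replicate 41.

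Fosb, an inducible Fos relative known best from neurons, was above background on all arrays. It stood at -1.92, -2.28, -2.26 and -2.04 on the vehicle arrays of replicates 2, 3, 4 and 6, and at -2.33, -2.43, -2.50 and -2.08 on the furan arrays. The change was -0.21 ± 0.13 (SE), with a 95% interval of -0.51 to 0.10 (limma adjusted p = 0.354). Its sign turned with quantile normalization (0.24), a median shift (0.28), normexp (0.12) and the authors' value table (0.09).

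Fos, the founding member of its family, had a probe printed on 10 spots of each array. The probe was well above background, meaning on at least 50% of its spots, on the furan arrays of replicates 43 and 44 and on 0 of the 4 vehicle arrays. The number of spots above background was 0 on each vehicle array, and 3, 0, 9 and 6 on the furan arrays of replicates 41 to 44. The level was -4.65, -6.18, -5.51 and -5.98 on the vehicle arrays, none of them well above background. It was -4.78, -4.72, -4.01 and -4.60 on the furan arrays, so that vehicle replicate 2 lay among the furan values. Fos did not enter the test. In the fit without a filter on dim probes its difference was 1.06 ± 0.36 (SE, limma adjusted p = 0.307). The furan mean did not exceed the lowest signal above background on the vehicle arrays, so no fold against that signal was given.

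**Figure D3:**
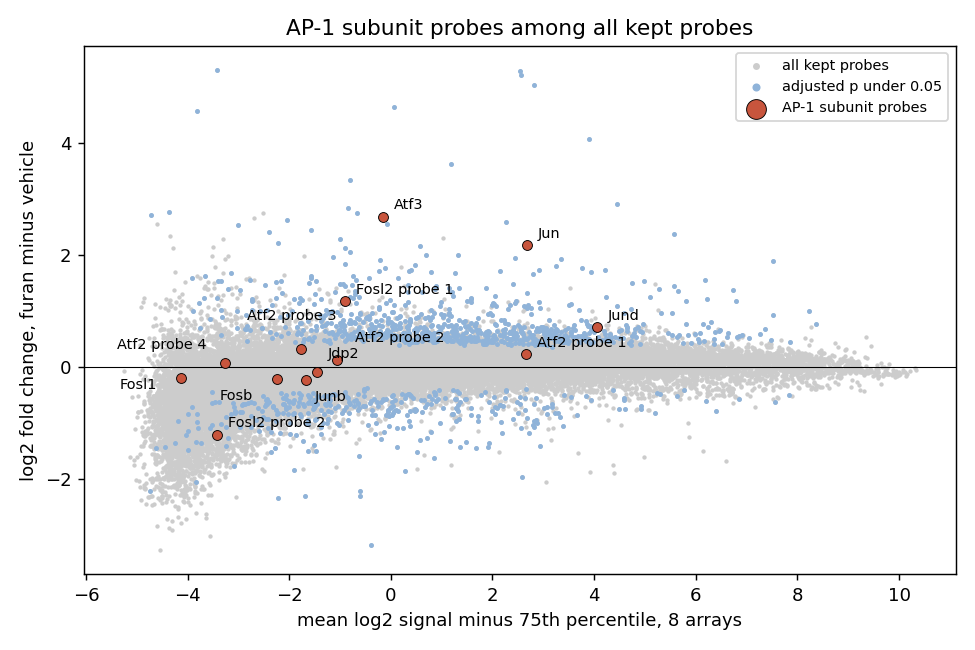
Each point is 1 of the 33848 kept probes, with its mean log2 level over the 8 arrays on the x axis and its log2 fold change (furan minus vehicle) on the y axis; blue marks an adjusted p under 0.05 and red the 13 AP-1 probes. Atf3 and Jun lie near the upper edge, and the dim Fosl2 probe lies in the cloud of dim probes that is shifted below 0.

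Atf3 encodes a stress-induced member of the ATF branch that represses many promoters as a homodimer and can pair with Jun proteins. It stood at -1.68, -1.86, -0.69 and -1.78 on the vehicle arrays of replicates 2, 3, 4 and 6. It stood at 1.78, 0.77, 1.31 and 0.88 on the furan arrays of replicates 41 to 44. Every furan array was above every vehicle array, and vehicle replicate 4 was the high one of its group. Atf3 rose from -1.51 ± 0.55 (SD, n = 4) to 1.19 ± 0.46, a change of 2.69 ± 0.32 (SE) with a 95% interval of 1.95 to 3.44 (limma adjusted p = 0.0111). By size of increase, its probe ranked 16 among the kept probes, above that of Jun. The difference was 2.83 and 2.56 in the slide rows and 2.56, 3.17, 3.46 and 1.58 in the slide columns, with the smallest in the column that held vehicle replicate 4. The call held without any 1 array and was lost with the slide column as a block (0.146). The authors' value table gave a change of 2.29 for Atf3 and 2.05 for Jun (limma adjusted p = 0.00313 and 0.00163).

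Atf2, a constitutive factor activated by phosphorylation through JNK and p38, was read by 4 probes, each above background on all 8 arrays. None of the 4 passed, and their changes were 0.23, 0.12, 0.32 and 0.07. The brightest probe stood at 2.45, 2.73, 2.34 and 2.68 on the vehicle arrays of replicates 2, 3, 4 and 6, and at 2.95, 2.73, 2.77 and 2.69 on the furan arrays. Its groups overlapped slightly, and its change had a 95% interval of -0.04 to 0.51 (limma adjusted p = 0.276). The probe with the change of 0.32 had an interval of -0.06 to 0.69 (0.277). It passed with normexp (0.0422) and in the authors' value table (0.0275), where its change was 0.42 and 0.41. The other 2 probes had intervals of -0.20 to 0.45 and -0.37 to 0.50.

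Jdp2, a Jun dimerisation partner that represses AP-1 targets, stood at -1.66, -1.55, -1.23 and -1.22 on the vehicle arrays of replicates 2, 3, 4 and 6. On the furan arrays it stood at -1.58, -1.47, -1.49 and -1.47, inside the vehicle range. The change was -0.09 ± 0.12 (SE), with a 95% interval of -0.37 to 0.20 (limma adjusted p = 0.649). The sign turned to above 0 with quantile normalization, a median shift, normexp and the authors' value table, with the highest value at 0.40.

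The 4 risers shared 1 feature across animals that was not particular to them. The furan array of replicate 41 held the highest value of its group for Jun, Jund, Atf3 and the brighter Fosl2 probe. It did so as well for Junb and the brightest Atf2 probe, which did not pass. The share of all kept probes with this feature was not taken. The lowest furan value was on replicate 42 for Jun and Atf3 and on replicate 44 for Jund and Fosl2. Without furan replicate 41 the changes were 2.07 for Jun, 2.49 for Atf3, 1.08 for Fosl2 and 0.66 for Jund.

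**Figure D4:**
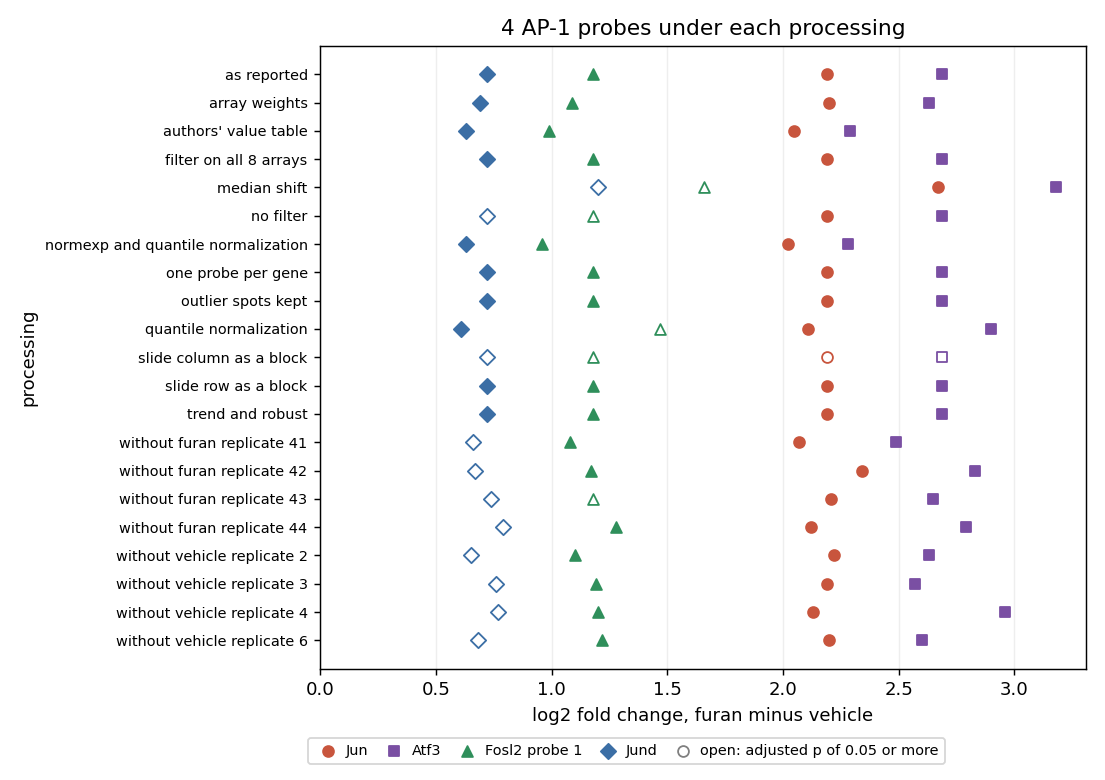
The log2 fold change (x axis, furan minus vehicle) of Jun, Atf3, the brighter Fosl2 probe and Jund is plotted for the reported processing and 20 alternatives (y axis); open symbols did not pass an adjusted p of 0.05. Jun stays between 2.02 and 2.67 and Atf3 between 2.28 and 3.18, and both are open only with the slide column as a block.

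Markers of other liver cells give the setting of these changes, and in limma 0 genes of any marker list passed, where 4.32% of the 15070 genes with a symbol did. At an unadjusted p under 0.05, 2 of the 42 kept markers were higher, the collagen genes Col1a1 and Col3a1, and 5 were lower, namely Cd79a, Pecam1, Stab2, Cela2a and Ctrb1. Over all genes with a symbol, 25.5% were under that unadjusted p, and 16% were so and higher. The summed level of 6 macrophage markers was 6.20 to 7.43 on the vehicle arrays and 6.44 to 6.72 on the furan arrays, and Cd68 was above background on 0 arrays. That of 3 neutrophil markers was 0.21 to 0.96 and -0.02 to 1.17, with Ly6g above background on 0 arrays. That of 6 lymphocyte markers was 2.55 to 2.93 and 2.58 to 2.85. The ranges of the groups overlapped for each of these immune lists.
The 6 endothelial markers summed to 6.34 to 6.61 on the vehicle arrays and 6.06 to 6.35 on the furan arrays. The 6 stellate and fibroblast markers summed to 2.65 to 2.94 and 2.94 to 3.17. The 5 bile duct markers summed to -0.22 to 1.35 and -0.38 to 0.32. The 2 exocrine pancreas markers kept, of 5, summed to 0.28 to 0.57 and -0.40 to 0.13, with Pnlip and Cpb1 above background on 0 arrays. The stellate sums were slightly higher in the furan group, the pancreas sums were lower, and the endothelial sums were lower with only a narrow overlap. The part of these cell types in the AP-1 changes was not tested.

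Genes around AP-1 were read by the brightest kept probe of each gene, in 4 lists. The median change was -0.01 over all 15070 genes with a symbol, of which 3.30% passed upward and 1.02% downward. Of 18 measured other bZIP factors, 1 rose and 1 fell, with a median change of 0.24. Of 18 measured MAP kinase cascade genes, 1 rose and 0 fell, with a median of 0.15. Of 17 regulators of AP-1 expression or protein, 0 passed in limma, with a median of 0.12, and 3 were higher at an unadjusted p under 0.05. At that unadjusted p, 5 other bZIP factors were higher and 1 lower, 3 MAP kinase cascade genes were higher and 1 lower, and 4 targets were higher and 0 lower. All these counts include the genes that passed. Among all genes with a symbol, 25.5% were under that unadjusted p, and 16% were so and higher. Of 19 measured genes known as AP-1 targets, 1 rose and 0 fell, with a median of 0.08. Counts of 0 to 2 of 17 to 19 genes were not tested against the 4.32% of all genes.

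Atf4, the bZIP factor that directs the integrated stress response and lies upstream of Atf3 in it, rose by 0.64 ± 0.10 (SE, limma adjusted p = 0.0244). Its other kept probe gave 0.79 (0.0131). Leaving out vehicle replicate 3 or 6 took the Atf4 probe over the threshold (0.0632 or 0.0693), as did leaving out furan replicate 41, 42, 43 or 44 (0.0825, 0.0739, 0.0792 or 0.0609). It was also lost with a median shift (0.477) and without the filter on dim probes (0.113). Creb1, which binds the cyclic AMP response element, was measured by probes that disagreed. Its brightest kept probe fell by 0.80 ± 0.10 (SE, limma adjusted p = 0.0117), and the other probe gave 0.52 (0.124). Even the brightest Creb1 probe was dim, with means of -2.66 on the vehicle and -3.46 on the furan arrays. Among kept probes with a mean level below -3, 88.7% had a change below 0, with a median of -0.55. With quantile normalization, normexp and the authors' value table the brightest probe gave -0.13, -0.12 and -0.11, none of them past the threshold, nor was it past it with a median shift (-0.32) or without a filter (adjusted p = 0.0686).

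Map3k7, which encodes the kinase TAK1 upstream of JNK and p38, rose by 0.41 ± 0.08 (SE, limma adjusted p = 0.0427), while its other 2 probes gave 0.27 and 0.07 and did not pass. That call was lost in every fit without 1 array. Leaving out vehicle replicate 2, 3, 4 or 6 gave 0.0652, 0.0772, 0.104 or 0.103. Leaving out furan replicate 41, 42, 43 or 44 gave 0.126, 0.109, 0.119 or 0.0803. It was lost as well with quantile normalization (0.0742), normexp (0.0846), the authors' value table (0.0611), a median shift (0.502), no filter (0.196) and the slide row as a block (0.0585). The next gene of that list was Mapk7, the kinase ERK5, at 0.41 ± 0.14 (SE, limma adjusted p = 0.139). The JNK genes are named here after their values were seen. By brightest probe, Mapk8 and Mapk9 had changes of -0.22 and 0.03, and Mapk10 had no kept probe. That Mapk8 probe was dim, with means of -2.54 on the vehicle and -2.76 on the furan arrays, though above background on 4 arrays of each group. The other kept probes gave -0.43 and -0.15 for Mapk8 and 0.15 for Mapk9, and none of them passed. By brightest probe, the regulator closest to the threshold was Trib1, a pseudokinase of the Cop1 ubiquitin ligase complex, at 0.44 (0.136). Next was the kinase gene Gsk3b at 0.36 (0.143). The other probe of Trib1 gave 0.50 (0.0765), and those of Gsk3b gave 0.22 and 0.05. Dimmer probes of Srf, Csnk2a1 and Mef2d gave 0.43 (0.0802), 0.34 (0.0952) and 0.42 (0.103), and also did not pass.

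Among the targets, Timp1, an inhibitor of matrix metalloproteinases, rose by 1.00 ± 0.18 (SE, limma adjusted p = 0.0313). Its probe was dim, with means of -3.52 on the vehicle and -2.53 on the furan arrays. It was above background on 3 vehicle and 4 furan arrays, so it left the fit with the filter on all 8 arrays. Of the 8 fits without 1 array, the Timp1 call held only without vehicle replicate 2. Leaving out vehicle replicate 3, 4 or 6 gave 0.0695, 0.0847 or 0.0648, and leaving out furan replicate 41, 42, 43 or 44 gave 0.0868, 0.0602, 0.0951 or 0.0870. It was also lost with quantile normalization (change 1.67, 0.142), with a median shift (0.142) and without a filter (0.120). The chemokine gene Ccl2 had a change of 1.14 ± 0.26 (SE, adjusted p = 0.0620) and passed without vehicle replicate 2 (0.0488), with array weights (0.0254), with quantile normalization (0.0340), with normexp (0.0135), with the authors' value table (0.0138), with trend and robust (0.0216) and with probes above background on every array (0.0337). Of the protease genes, also named after their values were seen, Mmp3, Mmp9, Mmp10 and Plau had no kept probe, and Mmp12 and Mmp13 had changes of 0.82 and -0.37 that did not pass.

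**Figure D5:**
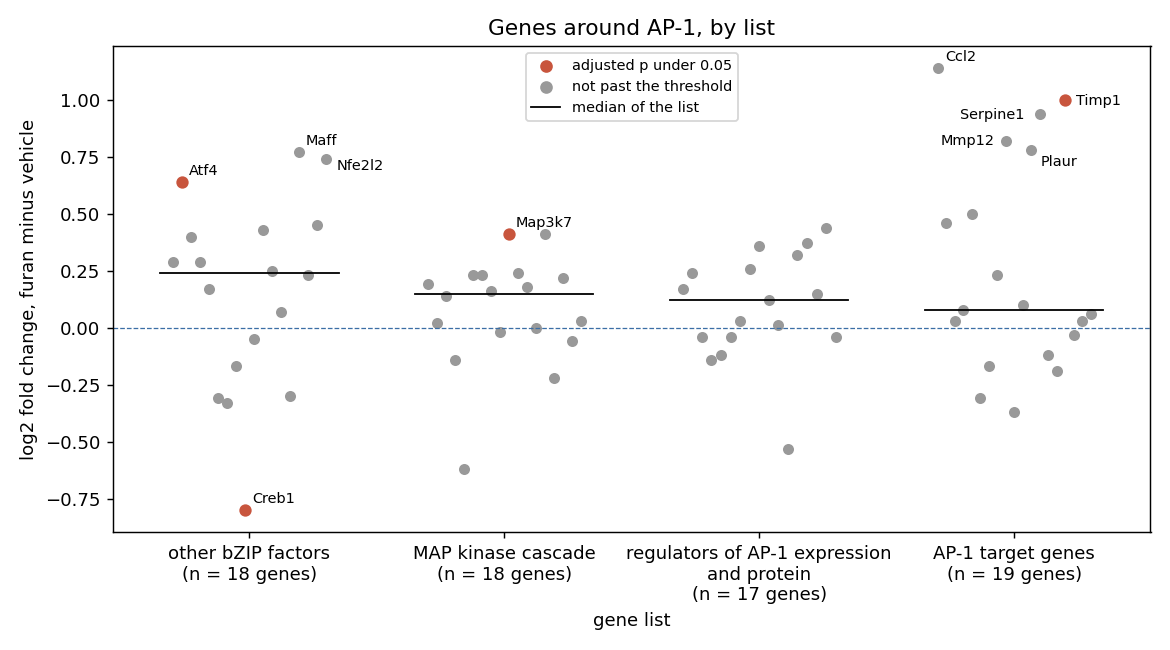
Each point is 1 gene, by its brightest kept probe, with the log2 fold change (furan minus vehicle) on the y axis and the 4 gene lists on the x axis; red marks an adjusted p under 0.05 and bars are list medians. Atf4, Creb1, Map3k7 and Timp1 are the red points, and the medians lie between 0.08 and 0.24.

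The profiles most like those of Jun and Atf3 were sought over all 8 arrays, after the vehicle mean of each probe was subtracted, by the root mean square difference from the profile. Nearest to Jun were the tubulin pseudogene Tubb2a-ps2 (0.30), the TWEAK receptor gene Tnfrsf12a (0.33), the beta tubulin gene Tubb2a (0.34), the trehalase gene Treh (0.36) and the stress cytokine gene Gdf15 (0.37). Tubb2a-ps2 is a near copy of Tubb2a, so that the 2 probes may read the same transcript. Nearest to Atf3 were the RNA-binding protein gene Samd4 (0.38), Tubb2a (0.42), the death receptor gene Tnfrsf10b (0.56), the growth factor gene Nrg1 (0.57) and Jun itself (0.57). The Samd4 probe was above background on 0 vehicle arrays and on 4 furan arrays, so its distance rests on vehicle values without a measured signal. With each vehicle value below the lowest signal above background on its array raised to that signal, Samd4 was 2.63-fold higher after furan. This fold is not a lower bound, since that signal is the lowest of any probe on the array and other processing gave smaller rises. The log2 change of Samd4 was 1.1 in the authors' value table and 0.85 with normexp. Its measured group means were -5.74 and -2.97. The changes of the other genes ran from 1.81 for Tnfrsf12a to 2.84 for Nrg1, with a limma adjusted p of 0.00428 for Tubb2a to 0.0131 for Nrg1. Because these genes were picked for profiles close to Jun or Atf3, a rise of similar size with a small p was built into the choice. Their changes and p-values describe the picks and are no separate evidence. The Nrg1 call was lost without vehicle replicate 6 (0.0516), without furan replicate 41 (0.0542) and without a filter (0.0538).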

How the data were processed

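Per the file headers, each scanner file holds 1-colour fluorescence intensity from Agilent Feature Extraction 11.0.1.1 on array design 028005: 1 processed intensity for each spot, corrected for background and spatial trend by the scanner software, beside the median intensities of spot and background. The authors' deposited value table is in log2 units, and the sources used here do not state how it was made. Its correlation with the log2 median spot intensity was 0.998 to 1 on each array. The normexp setting starts from that same median spot intensity. From the processed intensity, control spots and outlier spots (128 to 315 an array) were left out, log2 values were shifted to the 75th percentile of the array, and spots of 1 probe were averaged. Each of the 33848 kept probes was fitted with 1 group term, 2-sided, by lmFit and eBayes (limma 3.58.1, R 4.3.3), and p-values were adjusted over all of them. Symbols came from a RefSeq table for GRCm38.p6, which named 27235 of 28685 probes with an accession. The probe annotation uses another build, so no probe positions are given.

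The members and lists were chosen with earlier results of these data known, so no list is independent support. The genes named are all kept AP-1 probes, the genes of each list with the smallest adjusted p, and the 5 profiles nearest to Jun and to Atf3. Other settings tried were a median shift, quantile normalization, normexp with an offset of 50 on the median spot intensity and then quantiles, no filter, probes above background on all 8 arrays alone, outlier spots kept, the authors' value table, 1 probe per gene, trend and robust, array weights, a block for slide row or slide column, leaving out each array, and an adjusted p under 0.01. The fit was tested on simulated data. The 4 arrays in each group limit the precision of each value. Figures used Python 3.11.15 with matplotlib 3.10.9.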

Additional observations from a re-analysis of the deposited data

Results flagged for a closer look

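In 3 of the 28 sets of 4 arrays (14 AP-1 probes in each group), 1 array lay far from the other 3, by the ratio of its gap to the range of the group. Chance alone gives this in about 1 of 20 sets. The dimmer Fosl2 probe was at -2.57 on furan replicate 43, while the other furan arrays were not well above background. Atf3 was at -0.69 on vehicle replicate 4, above the other vehicle arrays and below every furan array. Jdp2 was at -1.58 on furan replicate 41, beside 3 furan values within a very narrow range. Fos, which did not enter the test, was well above background on 2 furan arrays and on 0 vehicle arrays.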

How the results depend on the processing

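The count of all kept probes past the threshold was 1126, and 99 at an adjusted p under 0.01, 2377 with array weights, 1894 in the authors' value table, 2018 with the filter on all 8 arrays, 78 with a median shift, 98 without a filter, 0 with the slide column as a block and 2433 with trend and robust. Fits without 1 array called 154 to 999 probes, with the fewest without furan replicate 43. Of the AP-1 probes, 4 passed, and 1 at an adjusted p under 0.01, 2 with a median shift, 2 without a filter, 0 with the slide column as a block and 2 to 3 without 1 array. AP-1 targets passing went from 1 to 0 at an adjusted p under 0.01, with a median shift, without a filter and with the slide column as a block, to 2 with array weights, normexp or the filter on all 8 arrays, to 3 with trend and robust or the authors' value table, and to 0 to 2 without 1 array. MAP kinase genes went from 1 to 0 with either block, either quantile setting, a median shift, no filter, the authors' value table, an adjusted p under 0.01 and without any 1 array (0 to 0). Other bZIP factors went from 2 to 4 with the filter on all 8 arrays or array weights, 5 with trend and robust, 1 with quantile normalization, 0 with a median shift, no filter, the slide column as a block or an adjusted p under 0.01, and 1 to 2 without 1 array. Changes that turned sign belonged to probes that did not pass. They were Junb (0.26 with a median shift, 0.01 with normexp, 0.00 with quantile normalization), Fosb (0.28, 0.12 and 0.24 in that order, 0.09 in the authors' value table), Jdp2 (0.40, 0.12 and 0.27, and 0.05 in that table), Fosl1 (0.29, 0.15 and 0.55, 0.17 in that table, 0.01 with array weights, -0.47 to 0.09 without 1 array, above 0 without furan replicate 41 or vehicle replicate 2) and the dimmest Atf2 probe (-0.02 to 0.23 without 1 array, lowest without vehicle replicate 6). The causes were not tested. No paired analysis was possible because the groups share no replicate numbers, other than by slide column, which pairs 1 vehicle with 1 furan array by position and is the block given above. Probes near background, such as those of Fos, Fosl1 and the dimmer Fosl2 probe, are limited by signal.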
